A study of Mus musculus with 3 samples.

Results

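Cycling precursors that carried transcripts of Dntt or Cox6a2 were examined in mouse bone marrow by droplet single-cell RNA sequencing. They made up 640 of 19762 kept cells. The cells were selected on their own measured values, by counts of UMIs (unique molecular identifiers, each standing for 1 captured mRNA). A kept barcode was taken when Mki67 and Top2a summed to at least 2 UMIs, Dntt and Cox6a2 to at least 2, and Runx2 and Tcf4 to at least 1. It was left out when Siglech passed 4 UMIs, when Ebf1 and Vpreb3 summed to more than 1, when Elane and Prtn3 summed to more than 5, or when any UMI of Cd3e, Cd3d or Cd3g was present. The levels of these genes are therefore descriptions of the choice and not findings.

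Each of the 3 genotypes was represented by 1 library. The Lztr1 knockout was Lztr1fl/fl;Mx1Cre+, the Rit1-M90I library was Rit1M90I/+;Mx1Cre+, and the control had the strain label Rit1M90I/+Mx1Cre- while its title called it wild type. Treatment began at 8 weeks of age with 3 doses of 12 mg/kg pIpC, which imitates viral RNA and evokes interferon. The marrow was taken 4 weeks later and sorted for live cells negative for CD3, CD11b, Gr1, B220 and Ter119. Mx1-Cre is switched on by interferon in blood cells and in other cells that respond to it, and both mutant libraries carried it while the control did not, so Cre and allele cannot be told apart. The labels do not say how many mice stood behind a library. The B220 gate removes cells with that antigen, which many plasmacytoid cells and B-lineage precursors carry, so the shares below are shares of what passed the gate.

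RIT1 belongs to the RAS family of GTPases. LZTR1 carries it to the CUL3 ubiquitin ligase for breakdown. Dntt encodes terminal deoxynucleotidyl transferase, which adds untemplated bases at the joints of rearranging antigen receptor genes and marks early lymphoid precursors. Cox6a2 encodes a subunit of cytochrome c oxidase best known from heart and muscle and also transcribed in plasmacytoid dendritic cells, the main producers of type I interferon. Tcf4 (the E protein E2-2) is the factor that keeps plasmacytoid identity, Runx2 acts with it there, and Siglech is a receptor on the surface of those cells. Ebf1 and Vpreb3 belong to the B lineage, Elane and Prtn3 to neutrophil progenitors, and Mki67 and Top2a are transcribed while cells divide.

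Dntt lies on the plus strand of chromosome 19 (41029275 to 41059525, mm10), Cox6a2 on the minus strand of chromosome 7 (128205435 to 128206387), and Myl10 on the plus strand of chromosome 5 (136693146 to 136701094). Dntt was 1 of the genes by which the cells were chosen. Myl10, the precursor lymphocyte-specific regulatory light chain of myosin, had the clearest lower level in both mutant libraries against the shared control. Their start regions are shown for these reasons, from 250 bases before to 50 after the start, as RefSeq gives them on GRCm38.p6, plus strand, at chr19:41029025-41029324 and, for the first of 3 Myl10 starts listed, at chr5:136692896-136693195. Capitals mark E-boxes, the CANNTG motif that E proteins such as TCF4 can bind.
Dntt: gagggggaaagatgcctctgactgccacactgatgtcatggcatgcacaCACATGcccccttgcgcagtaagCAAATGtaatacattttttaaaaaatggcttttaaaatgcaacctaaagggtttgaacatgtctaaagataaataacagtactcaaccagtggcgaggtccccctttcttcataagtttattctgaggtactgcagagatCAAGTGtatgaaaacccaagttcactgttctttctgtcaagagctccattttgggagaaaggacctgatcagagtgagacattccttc
Myl10: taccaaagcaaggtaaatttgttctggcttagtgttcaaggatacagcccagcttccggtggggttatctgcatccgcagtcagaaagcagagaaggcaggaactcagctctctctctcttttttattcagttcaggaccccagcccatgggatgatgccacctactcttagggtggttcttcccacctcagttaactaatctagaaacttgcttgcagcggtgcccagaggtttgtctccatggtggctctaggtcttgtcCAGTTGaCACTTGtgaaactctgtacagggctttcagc
The Dntt region held 3 E-boxes and 1 match to TGNGGT, a core of the RUNX motif, counted on both strands, with no overlap between the motifs. The Myl10 region held 2 E-boxes and 3 RUNX matches. Of 27025 start regions of the same length, 72.1% held at least 1 E-box and 45.6% at least 1 RUNX match, so the letters alone set neither gene apart.

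The cells made up 4.996% of kept cells in the Lztr1 knockout library (121 of 2422, 95% interval 4.16 to 5.94), 2.34% in the Rit1-M90I library (230 of 9817, 2.05 to 2.66) and 3.84% in the control (289 of 7523, 3.42 to 4.30). The knockout share was thus above and the Rit1-M90I share below that of the control. All intervals are exact binomial, exact Poisson or ratio intervals for counting error only, and with 1 library per genotype no difference could be tested against the spread between mice. The ratio of shares was 1.30 for the Lztr1 knockout over control (1.06 to 1.60) and 0.61 for Rit1-M90I over control (0.51 to 0.72). Cycling cells of every kind were 58.0% of kept cells in the Lztr1 knockout, 47.2% in Rit1-M90I and 43.4% in the control. As a share of cycling cells alone, the precursors were 8.62% in the Lztr1 knockout, 4.96% in Rit1-M90I and 8.85% in the control. On that base the knockout ratio was 0.97 (0.795 to 1.19), whereas the Rit1-M90I ratio was 0.56 (0.47 to 0.66). Prtn3, which the rule limits with Elane, was detected in 60.3% of the precursors in the Lztr1 knockout, 70.9% in Rit1-M90I and 51.9% in the control. In basophils (at least 20 UMIs of Mcpt8 and Prss34) it was seen in 45.3%, 58.0% and 31.8% of cells. The part of this limit in the shares was not tested.

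Cells that met every other term of the rule but held no Mki67 or Top2a UMI numbered 45 in the Lztr1 knockout (1.86% of kept cells), 231 in Rit1-M90I (2.35%) and 182 in the control (2.42%). The Rit1-M90I and control shares of these non-cycling counterparts differed by less than counting error, with a ratio of 0.97 (0.80 to 1.18). Of these 2 sets together, the cycling precursors were 72.9% in the Lztr1 knockout (65.5 to 79.5), 49.9% in Rit1-M90I (45.2 to 54.6) and 61.4% in the control (56.8 to 65.8). The 193 cells of all libraries with a sum of 1 UMI were in neither set, so these are not shares of all eligible cells. The Rit1-M90I interval lay below that of the control, and the knockout and control intervals overlapped at their edges. The counterparts were shallower, with a median of 6685 UMIs against 10080 for the precursors in the knockout, 5338 against 8709 in Rit1-M90I, and 5908.5 against 8723 in the control. The parts of depth and of the limit on Elane and Prtn3 in this split were not tested.

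Siglech-high cells, with at least 5 Siglech UMIs and the same limits on other lineages, were 1.20% of kept cells in the Lztr1 knockout, 0.886% in Rit1-M90I and 0.585% in the control. Their ratio over control was 2.05 in the knockout (1.28 to 3.26) and 1.52 in Rit1-M90I (1.06 to 2.17). The Rit1-M90I library therefore had a lower share of cycling precursors and a higher share of Siglech-high cells than the control. Siglech-high cells had a median depth of 6160 UMIs in the Lztr1 knockout, 5051 in Rit1-M90I and 5389 in the control. The part of depth in their shares was not tested. B-directed cells met the rule without its Mki67 and Top2a term, except that Ebf1 and Vpreb3 summed to at least 2 UMIs. They were 1.45%, 0.754% and 0.837% of kept cells in the Lztr1 knockout, Rit1-M90I and control libraries. Their median depth was 8577, 5575 and 5941 UMIs, and its part in these shares was not tested either.

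**Figure D1:**
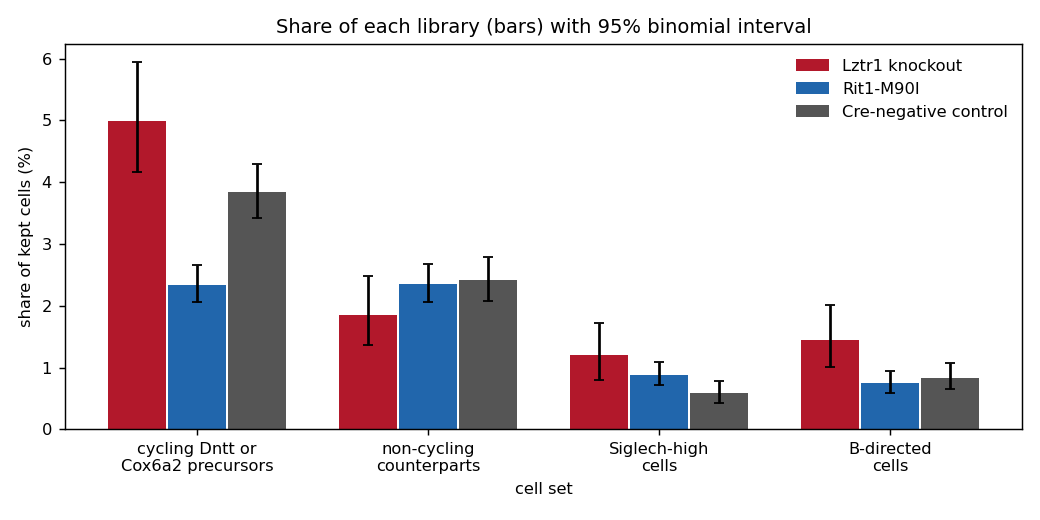
Share of kept cells (%) of the cycling precursors and of 3 like sets, with bars for the Lztr1 knockout, Rit1-M90I and Cre-negative control libraries and 95% binomial intervals. The precursors stood at 4.996%, 2.34% and 3.84%, while the non-cycling counterparts stood at 1.86%, 2.35% and 2.42%.

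The libraries differed in depth, with a median kept cell of 10140.5 UMIs in the Lztr1 knockout, 6885 in Rit1-M90I and 7021 in the control. With every kept cell thinned to 5000 UMIs, the precursors were 5.20%, 2.93% and 4.05% in the same order, so the order of the libraries stayed as it was. Thinning left out 558, 3908 and 2737 shallower cells. The precursors' summed depth was 1413643, 2137555 and 2797765 UMIs in the 3 libraries. No precursor barcode was shared between libraries. A doublet caller marked 7 of 121, 17 of 230 and 12 of 289 precursors, and these were kept because the rule has no such step.

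Several limits of the rule cut through a continuum. Over the 3 libraries, 118 precursors stood at the lowest allowed sum of 2 Mki67 and Top2a UMIs, and 193 cells met all other terms with a sum of 1. For Dntt and Cox6a2, 71 stood at 2 UMIs and 164 just outside at 1. For Siglech, 25 stood at 4 and 22 just outside at 5. For Elane and Prtn3, 42 stood at 5 and 27 just outside at 6. Fewer cells lay just outside the other terms, with 16 for Runx2 and Tcf4, 13 for Ebf1 and Vpreb3, and 9 for Cd3e, Cd3d and Cd3g.

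Lztr1 mRNA in the precursors was 6.37 CPM (the usual counts-per-total scale, with the UMIs of a gene scaled to an equal total of UMIs in each library) in the Lztr1 knockout, 14.5 CPM in Rit1-M90I and 19.3 CPM in the control, from 9, 31 and 54 UMIs. The knockout level was 0.33 times that of the control (0.14 to 0.67), in the direction of its label. The labels do not give the deleted exons, so the deletion itself could not be checked with these 3′ tags, nor could the M90I change. Rit1 mRNA was 10.6, 13.6 and 8.94 CPM in the same order of libraries, and its ratio intervals over control held 1 in both mutants.

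Dntt was detected in 81.8% of the precursors in the Lztr1 knockout, 83.5% in Rit1-M90I and 80.3% in the control. The name "Dntt-positive" thus does not hold for every cell taken by the rule, since Cox6a2 alone could satisfy it. In basophils, which should lack both, Dntt was seen in 4.74%, 5.57% and 1.72% of cells and Cox6a2 in 0.53%, 2.42% and 0.72%, at median depths of 4388, 3668.5 and 3541 UMIs. Dntt ran from 0 to 50 UMIs per cell with a median of 6 in the Lztr1 knockout, from 0 to 43 with a median of 8 in Rit1-M90I, and from 0 to 103 with a median of 6 in the control. Cox6a2 ran from 0 to 35, from 0 to 19 and from 0 to 25 UMIs per cell, with medians of 2, 2 and 3. Flt3, the cytokine receptor of early lymphoid and dendritic progenitors, was not in the rule and was detected in 88.4%, 88.7% and 90.0% of the precursors, at 264, 327 and 302 CPM.

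The 2 chosen genes divided the precursors into 3 classes. Cox6a2 without Dntt was seen in 117 cells, both in 363, and Dntt without Cox6a2 in 160. The class with Cox6a2 alone was 18.2% of precursors in the Lztr1 knockout, 16.5% in Rit1-M90I and 19.7% in the control, all within counting error of each other. The class with Dntt alone was 32.2% in the Lztr1 knockout (24.0 to 41.3), 24.8% in Rit1-M90I (19.3 to 30.9) and 22.1% in the control (17.5 to 27.4). The interval of the knockout overlapped that of the control. A missing UMI depends on depth, and after thinning to 5000 UMIs the class with Dntt alone was 41.0%, 33.0% and 33.5%. In the same order of libraries, the median depth was 7366, 7752.5 and 6883 UMIs with Cox6a2 alone. It was 11066, 8762 and 9309.5 UMIs with both, and 10262, 9497 and 8978 UMIs with Dntt alone. Siglech, limited to 4 UMIs, was detected in 32.2%, 33.0% and 33.6% of precursors. By class it was seen in 70.1% of cells with Cox6a2 alone, 32.0% with both and 8.75% with Dntt alone.

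**Figure D2:**
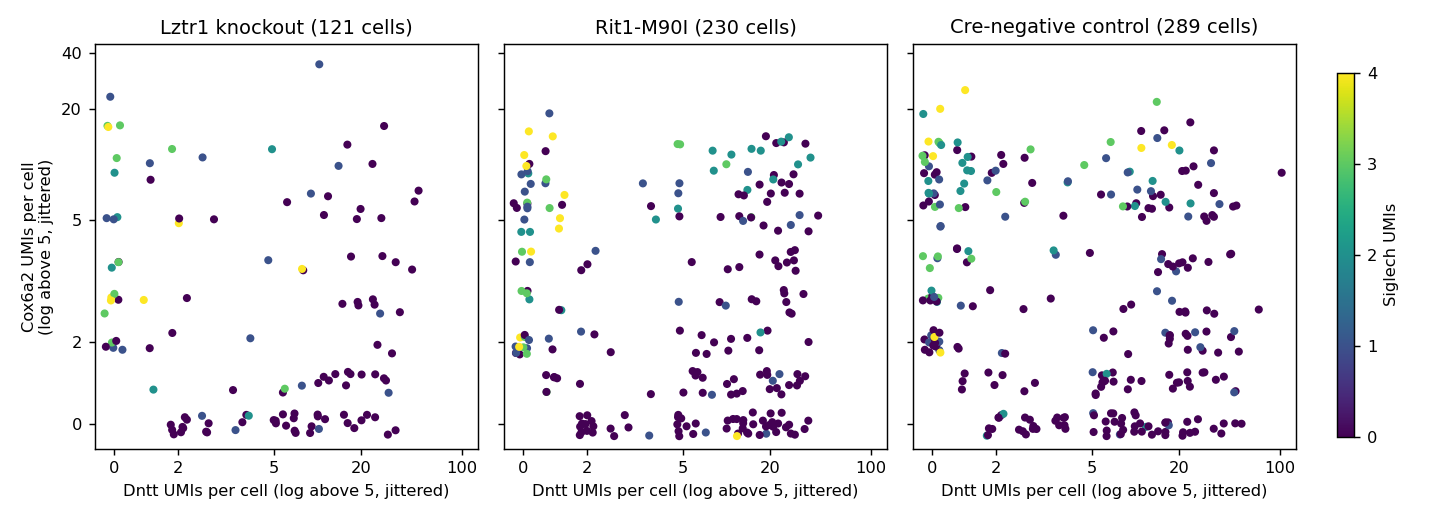
Dntt UMIs (horizontal) against Cox6a2 UMIs (vertical) in each precursor, 1 panel per library with the Lztr1 knockout (121 cells), Rit1-M90I (230) and the Cre-negative control (289) from left to right, axes linear to 5 and logarithmic above, points jittered and coloured by Siglech UMIs. Cells with Cox6a2 and no Dntt stand at the left edge, where 70.1% hold Siglech, and cells with Dntt and no Cox6a2 run along the bottom edge, where 8.75% do.

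Genes outside the rule differed together along these classes. Since the classes were cut from 2 genes of the same cells, the contrast is a description, and a gene was counted when its log2 ratio of CPM + 10 had 1 sign in all 3 libraries and a median past 1.5-fold. Between the class with Cox6a2 alone and that with Dntt alone, 8.05% of 6535 genes at 20 CPM or more were counted as higher and 4.77% as lower. Of 14 measured plasmacytoid genes, 12 were higher with Cox6a2 alone and none lower, with a median log2 ratio of 1.72 against 0.06 over all genes. Of 7 measured stem and multipotent genes, 6 were lower and none higher, with a median of -1.26. Of 9 measured monocyte genes, 8 were higher and 1 lower. Among 14 lymphoid progenitor genes, 3 were higher, Ly6d and Bcl11a among them, and 6 lower (Flt3, Satb1, Notch1, Cd27, Il2rg and Xrcc6).

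Irf8, a transcription factor needed for plasmacytoid and other dendritic cells, was at 2139, 1929 and 2163 CPM in cells with Cox6a2 alone in the Lztr1 knockout, Rit1-M90I and control libraries. It was at 987, 899 and 1060 CPM in cells with both, and at 566, 461 and 566 CPM in cells with Dntt alone. The 3 libraries ran almost side by side in this gene, and the classes did not overlap. Bst2, an interferon-induced surface protein constitutive on mouse plasmacytoid cells, was at 929, 782 and 760.0 CPM with Cox6a2 alone, against 182, 129.5 and 199 CPM with Dntt alone. Ly6c2 followed at 188, 222 and 181 CPM, against 12.97, 34.5 and 9.26 CPM. Ly6d, a surface protein used to divide early lymphoid precursors, had the highest median log2 ratio of the named genes, 4.69. It stood at 736, 515 and 898 CPM with Cox6a2 alone, against 6.49, 10.4 and 38.6 CPM with Dntt alone. Cells with both genes already held Ly6d at 354, 415 and 434 CPM.

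The other genes that led with Cox6a2 alone were Cd7, Cd300c, Itgax, Ahnak, Atp1b1, Upb1, S100a4 and Ppfia4. Cd7, a surface protein of lymphoid and plasmacytoid cells, was at 153, 222 and 92.4 CPM, against 6.49, 6.91 and 0 CPM with Dntt alone. Itgax, the integrin CD11c, was at 54.4, 98.5 and 32.9 CPM, against 0, 5.18 and 6.17 CPM. With Dntt alone the leading genes were Adgrl4, Wfdc17, Ctla2a, Hmga2, Ifitm3, Cd34, Myl10 and Egfl7, besides Prss34 and Mcpt8, which lay mostly in a few cells. Cd34, a surface protein of stem and multipotent progenitors, was at 44.5, 50.9 and 63.7 CPM with Cox6a2 alone, against 244, 297 and 296 CPM with Dntt alone. Hmga2, a chromatin protein of fetal and early progenitors, was at 0, 0 and 6.16 CPM, against 71.4, 53.5 and 50.9 CPM.

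Il7r, the receptor chain that carries the survival signal of lymphoid precursors, was highest in the class with both genes. It stood at 143, 210 and 249 CPM there, against 64.2, 54.0 and 49.3 CPM with Cox6a2 alone and 47.6, 38.0 and 86.4 CPM with Dntt alone. Rag1 and Rag2, which cut antigen receptor genes, were scarce: Rag1 was at 8.01, 8.04 and 14.4 CPM in the class with both and at 0 CPM with Cox6a2 alone, and at 141, 257 and 191 CPM in B-directed cells. Igll1 and Lef1 were at 0 in the precursors of all 3 libraries, Klk1 and Cd209d of the plasmacytoid list likewise, and Pax5 was at 0 in the Lztr1 knockout and the control. Of the 12 B lineage genes, 7, 9 and 8 had a UMI in the Lztr1 knockout, Rit1-M90I and control precursors, with a summed level of 705 to 762 CPM that was mostly Ighm.

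**Figure D3:**
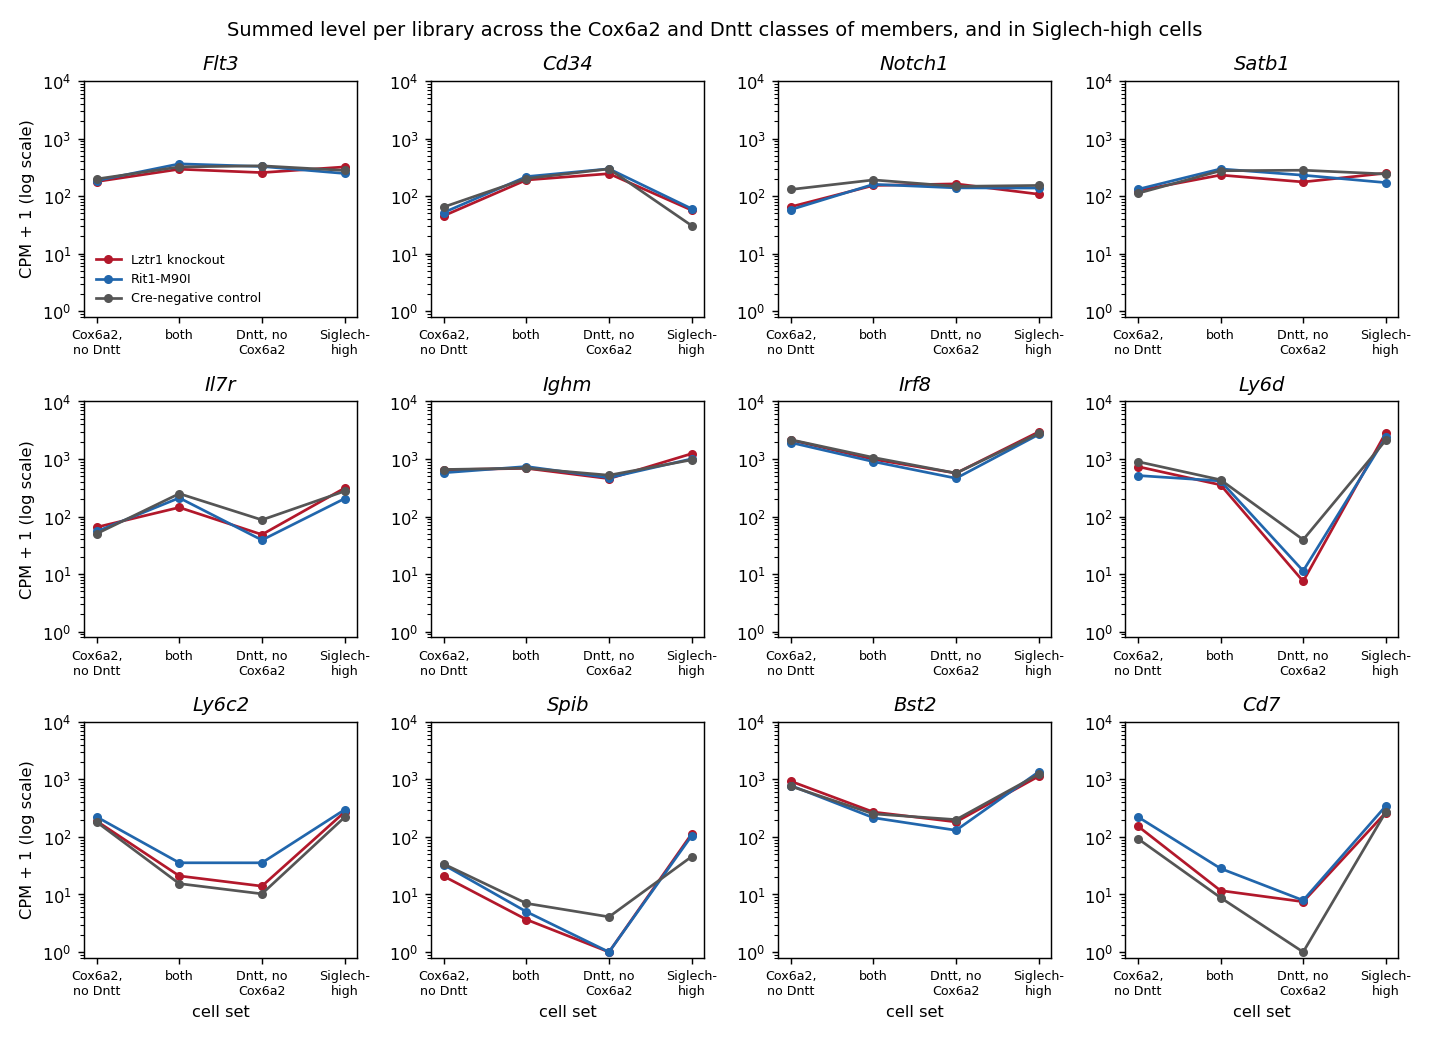
Level of 12 genes (CPM + 1, log scale) in cells with Cox6a2 and no Dntt, with both, with Dntt and no Cox6a2, and in Siglech-high cells, with 1 line for each of the Lztr1 knockout, Rit1-M90I and Cre-negative control libraries. Irf8, Ly6d, Ly6c2, Spib, Bst2 and Cd7 are lowest with Dntt alone, Cd34 is highest there, and Il7r peaks among the precursors in the class with both.

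The precursors were next set beside their like sets, as a description, since the rule fixes these contrasts. Over the non-cycling counterparts, 7.22% of 6589 genes were higher and 4.54% lower by the same count. Of 47 measured genes of G2 and mitosis, 45 were higher, and of 42 S phase genes, 30 were higher, with no gene of either list lower. Hist1h2ap, a replication-linked histone gene, was at 2640, 2960 and 3865 CPM in the precursors of the Lztr1 knockout, Rit1-M90I and control libraries, against 178, 175 and 218 CPM in their counterparts. Pclaf, a partner of PCNA at replication forks, was at 545, 489 and 567 CPM, against 34.2, 31.5 and 23.6 CPM. Histone genes have near-identical copies, so the values of single histone genes are uncertain.

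Genes lower in the cycling cells than in their counterparts included Ltb, Wfdc17, Sdc4, Cd33, Cd7, H2-Ob, AA467197 and Cd74. H2-Ob, a chain of a class II accessory molecule, was at 42.4, 68.3 and 56.1 CPM in the precursors and at 133, 95.2 and 134 CPM in the counterparts. Ltb, the lymphotoxin beta chain, was at 9.20, 16.4 and 10.4 CPM, against 64.9, 69.1 and 42.7 CPM. Of 16 measured lymphoid progenitor genes, 5 were lower and none higher (Satb1, Sox4, Cd27, Il2rg and Lax1), and of 14 plasmacytoid genes, 5 were lower and none higher (Irf7, Ccr9, Tlr7, Rnase6 and Ctsl). All 5 measured erythroid genes were higher in the precursors, where 7, 10 and 7 cells held at least 20 UMIs of Car1 and Car2.

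Over Siglech-high cells, 2.92% of 6570 genes were higher and 8.89% lower. Of 17 measured plasmacytoid genes, 15 were lower in the precursors and none higher, with a median log2 ratio of -1.53. Spib, a factor of plasmacytoid development, was at 4.24, 7.02 and 10.0 CPM in the precursors, against 112, 104 and 44.5 CPM in Siglech-high cells. Cybb, the core of the phagocyte oxidase, was at 15.6, 15.0 and 6.79 CPM, against 132, 196 and 148 CPM. Ly6d was at 295, 320 and 423 CPM, against 2866, 2393 and 2123 CPM. Igkc, Igha and Jchain led the genes higher in the precursors, with median log2 ratios of 3.78, 3.28 and 3.16, but lay mostly in a few cells. Ctla2a, Ifitm3, Egfl7 and Wfdc17 were also higher in the precursors, as was Myl10 at 57.3, 102 and 206 CPM, against 45.8, 18.5 and 25.98 CPM. Of 6 measured stem and multipotent genes, 4 (Cd34, Kit, Meis1 and Hoxa9) were higher and none lower. No S phase gene of 42 was counted in either direction, and 3 of 47 genes of G2 and mitosis (Ttk, Cdca2 and Hmmr) were higher.

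Within the cell cycle, the summed S phase genes were at 5039, 4792 and 5265 CPM in the precursors of the Lztr1 knockout, Rit1-M90I and control libraries, against 4766, 4228 and 4450 CPM in all other cycling cells. The summed G2 and mitosis genes were at 5549, 5731 and 6293 CPM, against 5629, 5168 and 5510 CPM. Hmgb2, a member of that list, was left out of this sum here and in the classes. The mutant precursors had a slightly lower sum than the control on both lists. In the class with Cox6a2 alone the G2 and mitosis sum was 6567, 5238 and 7768 CPM, and with Dntt alone it was 4794, 5078 and 5886 CPM.

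In the contrast of Lztr1 knockout over control precursors, few genes were called. Among 3139 genes with at least 50 CPM in either library, 33 were higher by 1.5-fold (1.05%) and 15 lower (0.478%). A call here means only that the log2 ratio of CPM + 10 passed that of a 1.5-fold change between 2 libraries. This scale understates the ratio of scarce genes. In the contrast of Rit1-M90I over control, 14 of 3108 genes were higher (0.45%) and 11 lower (0.354%). Both contrasts used the same control library, so no count of shared calls is given, and calls of a gene in both are not independent. When the single cell with the most UMIs of a gene was left out of each library, 24 higher and 15 lower calls remained for the Lztr1 knockout, and 13 higher and 8 lower for Rit1-M90I.

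Transcripts typical of other cell types, concentrated in a few cells, accompanied many of these calls. Precursors with at least 20 UMIs of basophil (Mcpt8 and Prss34), plasma cell (Igkc, Igha and Jchain), hemoglobin, carbonic anhydrase (Car1 and Car2), stroma (Cxcl12 and Igfbp5) or platelet (Pf4) genes numbered 12 of 121 in the Lztr1 knockout, 24 of 230 in Rit1-M90I and 11 of 289 in the control. The doublet caller had marked 7, 13 and 7 of them. Igfbp5 had 95 UMIs in the knockout precursors and none in the control, and 92 of the 95 lay in 1 cell. Ighg1 had 281 UMIs in Rit1-M90I, 279 of them in 1 cell. Iglc1, Iglc2 and Mzb1 in the Lztr1 knockout, and Igkc, Igha and Jchain in all libraries, were likewise dominated by 1 or 2 cells. In the control a single cell held 6379 of the 6618 Igkc UMIs.

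Prss34 and Mcpt8, proteases of basophils, had the lowest log2 ratios of the Lztr1 knockout and were among the highest of Rit1-M90I. Prss34 was at 19.8, 594 and 136 CPM in the Lztr1 knockout, Rit1-M90I and control precursors, and 1, 12 and 2 cells held at least 20 UMIs of the pair. Without the cells with transcripts of other cell types it was at 6.21, 28.5 and 12.3 CPM, beside 7.44, 21.4 and 10.1 CPM in erythroid cells (at least 10 Car1 UMIs), which should lack it. All 7 measured genes of the basophil and mast cell list were called higher in Rit1-M90I, with a median log2 ratio of 1.499, and both measured in the Lztr1 knockout were called lower. Over all genes at 20 CPM or more, 0.823% were higher in Rit1-M90I and 0.744% lower in the Lztr1 knockout. All 7 measured erythroid genes were called higher in the Lztr1 knockout precursors, with a median log2 ratio of 1.17, where 1.19% of all genes were higher. In Rit1-M90I, 3 of 7 (Hba-a1, Hbb-bt and Hbb-bs) were called higher, with a median of 0.51. Hbb-bs, a beta-globin gene with near-identical copies, was at 68.6 CPM in Lztr1 knockout precursors and 26.7 CPM in Rit1-M90I ones, against 3.93 CPM in control ones. Without the cells with transcripts of other cell types Car1 was at 32.8, 34.7 and 36.5 CPM in the 3 libraries. Those cells were picked by UMIs of Prss34, Mcpt8, Car1, Car2 and hemoglobin among others, so the lower levels of these genes follow from the choice. Without those cells 16 genes were higher and 15 lower in the Lztr1 knockout, and 15 higher and 9 lower in Rit1-M90I.

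**Figure D4:**
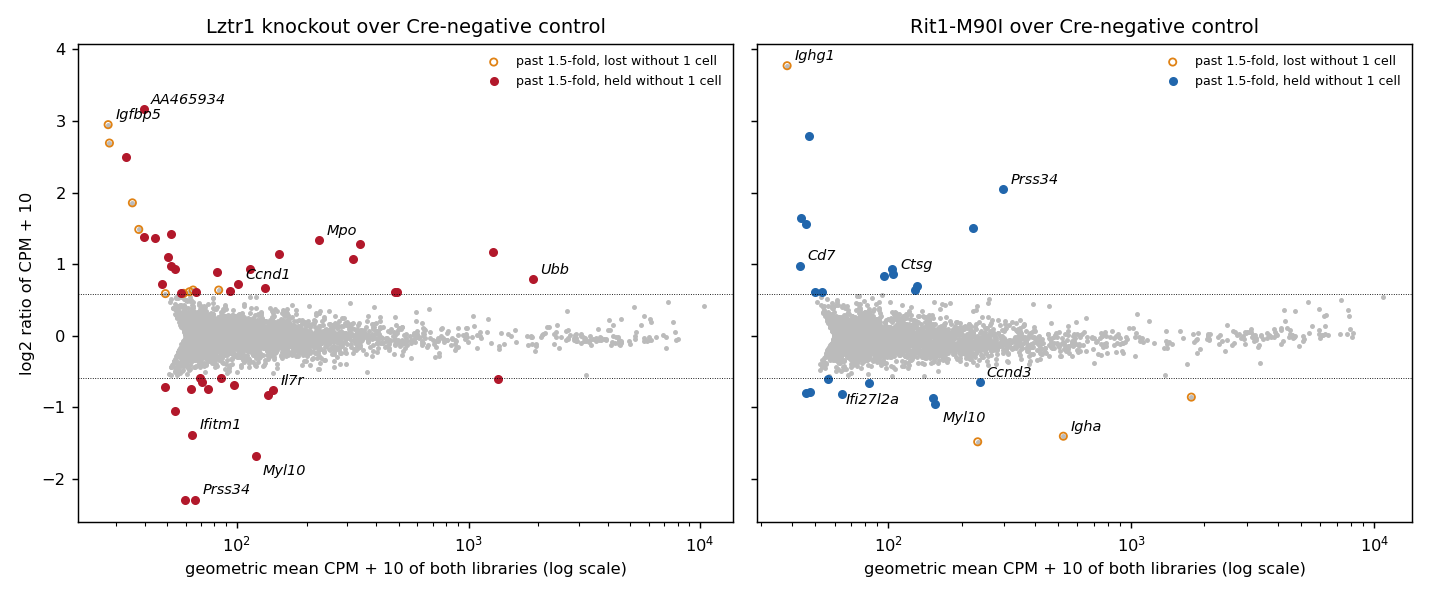
Log2 ratio of CPM + 10 in the precursors (vertical) against the geometric mean level (horizontal, log scale) for the Lztr1 knockout over control (left) and Rit1-M90I over control (right), genes at 50 CPM or more in either library, rule genes left out. Filled points passed 1.5-fold and still did without the top cell of each library, open points did not, and dotted lines mark 1.5-fold.

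AA465934 had the largest log2 ratio of the Lztr1 knockout, 3.16, and was spread over many cells. This transcript without a protein annotation on chromosome 11 (83291699 to 83294632) was at 108 CPM in the Lztr1 knockout, 2.81 CPM in Rit1-M90I and 3.22 CPM in the control, and 83 of 121 knockout precursors had a UMI against 9 of 289 in the control. It was at 117 CPM with Dntt alone and 93.9 CPM with Cox6a2 alone in the knockout. Outside the precursors the same library had it at 88.7 CPM, against 3.07 CPM in Rit1-M90I and 2.61 CPM in the control, so the difference was not particular to these cells. Ubb, a polyubiquitin gene, was at 2491 CPM in the Lztr1 knockout, 1335 CPM in Rit1-M90I and 1440 CPM in the control. Reads of Ubb can be shared with near-identical copies, so its level is uncertain.

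Mpo, the myeloperoxidase of neutrophil progenitors, was at 350 CPM in the Lztr1 knockout precursors, 184 CPM in Rit1-M90I and 133 CPM in the control. The knockout stood above both other libraries, with a log2 ratio over control of 1.34. A UMI of Mpo was found in 80.2%, 68.7% and 52.2% of precursors, and in 66.7%, 54.0% and 37.5% after thinning to 5000 UMIs. It was higher in the knockout in each class, at 188 CPM against 67.8 CPM in the control with Cox6a2 alone, 317 against 118 CPM with both, and 476 against 219 CPM with Dntt alone. Erythroid cells, which should lack Mpo, had it at 175 CPM in the Lztr1 knockout, 257 CPM in Rit1-M90I and 115 CPM in the control, with a UMI in 46.5%, 61.0% and 32.3% of cells of median depth 20126, 17554 and 18646 UMIs. By level, the knockout precursors were above these cells, the control precursors were near them, and those of Rit1-M90I were below them. By share of cells with a UMI, the precursors were above them in each library, at lower median depths of 10080, 8709 and 8723 UMIs. Level and detection thus differed for Rit1-M90I, and the erythroid cells are not a background of matched depth. Ctsg, a protease of the same cells, was at 131 CPM in Rit1-M90I precursors and 67.6 CPM in control ones, and its level in erythroid cells of these libraries was 138 and 56.1 CPM. The neutrophil progenitor list, led by Mpo in the precursors, was also summed in the like sets. In the Lztr1 knockout, Rit1-M90I and control it was at 465, 435 and 254 CPM in non-cycling counterparts. In Siglech-high cells it was at 356, 360 and 126 CPM, and in B-directed cells at 332, 330 and 156 CPM. A higher sum than in the control was thus not particular to the precursors.

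Ccnd1, which encodes cyclin D1 and is induced downstream of ERK signalling, was at 119.5 CPM in the Lztr1 knockout, 52.4 CPM in Rit1-M90I and 68.6 CPM in the control. Its ratio over control was 1.74 in the knockout (1.41 to 2.15) and 0.76 in Rit1-M90I (0.60 to 0.97). The knockout level was higher in each class, at 326 CPM against 216 CPM in the control with Cox6a2 alone, 85.5 against 36.7 CPM with both, and 84.3 against 40.1 CPM with Dntt alone. The intervals of the knockout and the control overlapped in the class with Cox6a2 alone. Without the cells with transcripts of other cell types Ccnd1 was at 138 CPM in Lztr1 knockout precursors and 71.8 CPM in those of the control.

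Of the other ERK output genes, Ccnd1 was the single member called among 5 measured in the Lztr1 knockout, where 1.19% of all 6321 genes at 20 CPM or more were called higher and 0.744% lower. Dusp6, a phosphatase of ERK and an output of the pathway, was at 32.5 CPM in the Lztr1 knockout, 16.4 CPM in Rit1-M90I and 20.4 CPM in the control. In Rit1-M90I no ERK output gene of 4 measured was called, where 0.823% of 6316 genes were higher and 0.317% lower. Of 18 measured RAS pathway genes, which included Nras, Cul3 and Ptpn11, none was called in either contrast, with list medians of 0.03 (Lztr1 knockout) and -0.01 (Rit1-M90I). Cul3 was at 96.2, 103 and 95.4 CPM.

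After Mcpt8 and Prss34, Myl10 had the lowest log2 ratio of the Lztr1 knockout. It was at 57.3 CPM in the Lztr1 knockout, 102 CPM in Rit1-M90I and 206 CPM in the control. Both mutants were below the same control library, with ratios of 0.28 (0.22 to 0.35) and 0.49 (0.42 to 0.58). A UMI was found in 26.4%, 35.7% and 46.7% of precursors, in 19.3%, 27.5% and 38.6% after thinning, and in 2.02%, 0.743% and 1.29% of erythroid cells. With Dntt alone it was at 41.1 and 53.5 CPM in the Lztr1 knockout and Rit1-M90I, against 258 CPM in the control, and with both genes at 81.5 and 149 CPM, against 241 CPM. The mutant and control intervals did not overlap in these classes. With Cox6a2 alone it was scarce in every library, at 4.94, 6.36 and 18.5 CPM.

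Il7r was at 100.5 CPM in the Lztr1 knockout, 140 CPM in Rit1-M90I and 177 CPM in the control. The ratio over control was 0.57 in the knockout (0.47 to 0.69), which was called, and 0.79 in Rit1-M90I (0.69 to 0.92), which was not. Il7r was detected in 43.8%, 47.0% and 56.7% of precursors, and in 26.3%, 38.5% and 43.6% after thinning. In the class with both genes it was at 143 CPM in the knockout (117 to 173) and 249 CPM in the control (226 to 274). Il7r was the single lymphoid progenitor gene called of 14 measured in the Lztr1 knockout, with a list median of -0.17, and none of 14 was called in Rit1-M90I, with a median of 0.02. Over all genes at 20 CPM or more, 0.744% were called lower in the knockout and 0.317% in Rit1-M90I. Sox4, Mef2c and Bcl11a, factors of lymphoid and dendritic progenitors, were at 459, 594 and 304 CPM in the knockout, against 440, 603 and 318 CPM in the control. Ly6d was at 295, 320 and 423 CPM in the Lztr1 knockout, Rit1-M90I and control precursors.

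Ifitm1, a membrane protein of the interferon-induced family that limits virus entry, was at 29.7 CPM in the Lztr1 knockout, 157 CPM in Rit1-M90I and 93.3 CPM in the control. It was called lower in the knockout and higher in Rit1-M90I. In the control 54 of its 261 UMIs lay in 1 cell, and without the top cells the log2 ratios were -1.30 and 0.92. The knockout level was near that of erythroid cells of its library, 30.4 CPM. Ifi27l2a, another interferon-induced gene, was at 173, 102 and 196 CPM and was called lower in Rit1-M90I, with a ratio of 0.52 (0.45 to 0.61). The interferon-stimulated list as a whole had a median of 0.01 in the Lztr1 knockout, with 1 of 10 measured genes called lower, and 0.06 in Rit1-M90I, with 1 of 12 higher and 1 lower. Over all genes at 20 CPM or more, 0.744% were lower in the knockout, and in Rit1-M90I 0.823% were higher and 0.317% lower. Blnk, the adaptor of the pre-B-cell receptor, was at 46.7, 38.4 and 75.1 CPM and was called lower in both mutants, against the same control value. Mgst2, a glutathione transferase, was at 27.6, 68.3 and 67.9 CPM and was called lower in the Lztr1 knockout.

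Gm42031, a gene model without a name, had the highest log2 ratio of Rit1-M90I after Ighg1, 2.80. It was at 114 CPM in Rit1-M90I and 7.86 CPM in the control, with a UMI in 56.5% and 7.27% of precursors, and the call held without the top cells. Another model, Gm43305, was called lower in the Lztr1 knockout, at 92.7 CPM against 171 CPM in the control. In Rit1-M90I, Ccnd3, the cyclin D3 of dividing lymphoid precursors, was at 180 CPM, against 287 CPM in the control, with a ratio of 0.63 (0.55 to 0.71). It was detected in 65.7% of Rit1-M90I precursors and 79.9% of control ones. Its largest gap was with Cox6a2 alone, at 254 CPM against 460 CPM in the control, and with Dntt alone it was at 128 CPM against 142 CPM. The Lztr1 knockout had 222 CPM of Ccnd3, which was not called. Cd7 was at 50.5 CPM in Rit1-M90I and 20.7 CPM in the control, with a ratio of 2.44 (1.76 to 3.41), and at 222 CPM against 92.4 CPM in the class with Cox6a2 alone. H2-Ab1, a class II chain, was at 24.8 CPM in Rit1-M90I and 50.4 CPM in the control.

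**Figure D5:**
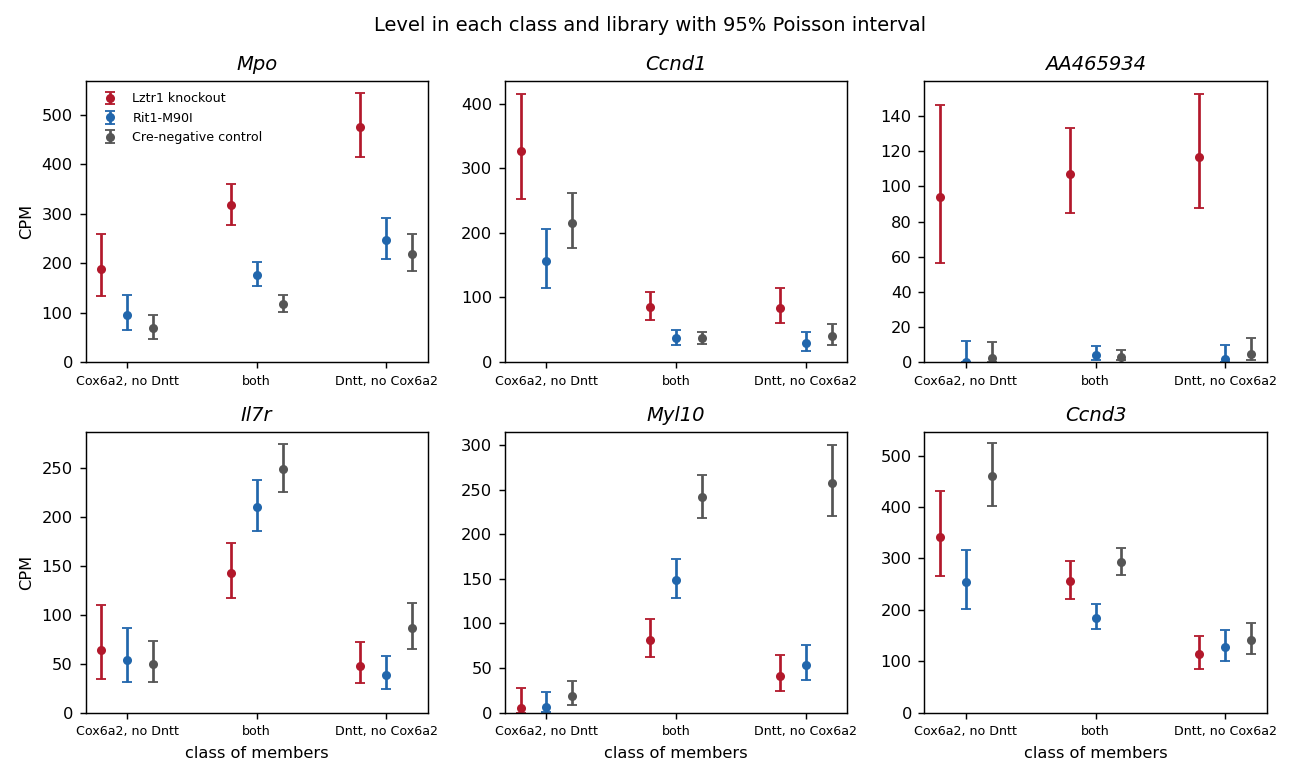
Level (CPM, from 0) of Mpo, Ccnd1, AA465934, Il7r, Myl10 and Ccnd3 in the 3 classes of precursors, with points for the Lztr1 knockout, Rit1-M90I and the Cre-negative control from left to right and 95% Poisson intervals. Mpo, Ccnd1 and AA465934 are highest in the Lztr1 knockout in every class, Myl10 is highest in the control in every class, and Ccnd3 is lowest in Rit1-M90I in the classes with Cox6a2.

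Over all genes at 20 CPM or more, 1.19% were called higher and 0.744% lower in the Lztr1 knockout, and 0.823% and 0.317% in Rit1-M90I. In lists this small, few or no calls are near those shares, so the counts below are descriptions. Plasmacytoid genes had medians of -0.06 in the Lztr1 knockout, with 1 of 12 measured higher and 1 lower, and -0.07 in Rit1-M90I, with none of 11 called. None of 42 S phase genes was called in either contrast, and 1 of 48 genes of G2 and mitosis was lower in the Lztr1 knockout and none in Rit1-M90I. No gene was called in either contrast among 5 measured V(D)J recombination genes, 6 BCL2 family genes and 14 ribosome biogenesis genes. Cytochrome c oxidase subunits other than the chosen one had 1 of 11 higher in the Lztr1 knockout, Cox6b2 at 94.1 CPM against 56.8 CPM in the control, and none in Rit1-M90I. Without the top cells its log2 ratio was 0.54, no longer past 1.5-fold. Of 12 measured cytokine receptors, Il7r alone was called in the Lztr1 knockout and none in Rit1-M90I. Among 14 measured G1 entry genes the single call was Ccnd1 in the Lztr1 knockout and Ccnd3 in Rit1-M90I. Of 7 measured stem and multipotent genes none was called in the Lztr1 knockout and 1, Gata2, was higher in Rit1-M90I. No immediate early gene was called, of 8 measured in Rit1-M90I cells and 7 in Lztr1 knockout cells. Klrd1, a receptor chain of natural killer cells, was at 45.3 CPM (Lztr1 knockout) and 44.4 CPM (Rit1-M90I), against 24.7 CPM in control precursors. It was called higher in both mutants, but the same control value entered both calls.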

How the data were processed

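The deposited matrices, 1 per library, hold whole-number UMI counts without normalization, written by Cell Ranger 6.1.1 per the file headers. The submitters' processing notes name mm10 and Seurat 4.1.0. How introns were counted is not given in the sources used. Barcodes with at least 1000 UMIs and 500 genes and at most 10% mitochondrial UMIs were kept. Doublets were called per library with scrublet in scanpy 1.11.5 (3.43%, 4.30% and 3.22% of kept cells in the Lztr1 knockout, Rit1-M90I and control libraries) and were removed only as an alternative. UMIs were summed over the selected cells of a library and given as CPM. Log2 ratios used a pseudocount of 10 CPM, and a gene was called past 1.5-fold at 50 CPM or more in either library, or at 20 CPM in the gene lists. Intervals are 95% Clopper-Pearson, Poisson, conditional ratio and Katz intervals and cover counting error only. The spread between cells and between mice is not in them, and CPM levels were not compared between genes.

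No significance test was made between genotypes, since each had a single library. Genes are named by size: the 6 highest and 6 lowest of each contrast whose ratio interval left out 1 (rule genes, mitochondrial and ribosomal protein genes, and genes named only by a clone or model, with names in Gm plus digits or ending in Rik, were passed over), the leading genes of each set comparison, the 2 highest and 2 lowest of each list described (28 lists in all), and cell type markers. Gm42031, Gm43305, Ubb, Flt3, Sox4, Mef2c, Bcl11a, Cul3 and Rag1 fall outside that rule and were chosen after their values were seen. The cells and lists were chosen with earlier results of these data known. The method of the calls was itself tried on simulated Poisson counts. These hold no spread between cells, so that trial does not bear on calls carried by single cells. Scaling by TMM factors (edgeR 4.0.16) was among the alternatives. Coordinates come from GENCODE on mm10. Of the genes whose start region was sought, Dntt and Myl10 matched the RefSeq table.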

Additional observations from a re-analysis of the deposited data

How the results depend on the processing

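Of 16 alternatives for the share of precursors (cell filter, doublets removed, thinning, stricter terms, another base, cells with transcripts of other cell types left out), 15 kept direction. The exception was the Lztr1 knockout as a share of cycling cells, where the log2 ratio was -0.039. Without the cells with transcripts of other cell types the log2 ratio of the Lztr1 knockout was 0.28 (-0.03 to 0.60) and with the stricter cell filter 0.27 (-0.05 to 0.59), so these intervals held 0. Thinning moved the class with Dntt alone to 33.0% in Rit1-M90I and 33.5% in the control, against 41.0% in the Lztr1 knockout. Counts of called genes follow in the order knockout higher, knockout lower, Rit1-M90I higher and Rit1-M90I lower: 18, 8, 9 and 5 with a pseudocount of 50 CPM, 78, 67, 29 and 24 after thinning, 123, 105, 88 and 37 with no filter on low genes, 14, 7, 9 and 6 at 100 CPM, and 15, 5, 6 and 2 at 2-fold. With a pseudocount of 1 CPM the lower genes were 25 in the knockout and 17 in Rit1-M90I. Without the cells with transcripts of other cell types, an alternative chosen after seeing the data, the higher genes of the knockout were 16. Of 471 alternatives for list medians 421 stayed within the counting interval or spread used for the reported value, and of 2448 for named genes 2237 did. The medians past 1.5-fold that changed sign were those of the plasma cell list without the cells of that kind (-0.42 in the knockout, 0.30 in Rit1-M90I) and of the stroma list of the knockout with no filter (-0.051). Of called genes, without those cells, Blvrb (-0.15), Cpa3 (0.22), Cxcl12 (-0.039), Igha (-0.47), Jchain (-0.36) and Mzb1 (-0.10) turned in the knockout, and Hbb-bt (-0.0099), Igha (0.82), Igkc (1.09) and Jchain (0.57) in Rit1-M90I. Without the top cell of each gene, also chosen after seeing the data, Igha (0.88), Igkc (1.18) and Jchain (0.66) turned in Rit1-M90I. Cxcl12 turned in the knockout with doublets removed (-0.047), and Igkc in Rit1-M90I after thinning (0.31). Depth limits scarce genes: 1 UMI weighed most in the Lztr1 knockout, which had the fewest precursor UMIs. No paired analysis was possible because each genotype had 1 library.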
